A study of Mus musculus with 2 samples.

Results

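The collagens other than type IV of the adult mouse kidney were examined as 38 protein-coding genes, chosen by name from the 43346 genes of the tables. A member is any protein-coding gene whose symbol reads Col, a number, a and a number, apart from the 6 type IV genes, and no measured value entered that choice. Kidney of the inbred strain C57BL/6J was sequenced at 8 weeks of age in 1 group, adult kidney, with 2 biological replicates. The labels name no treatment and no engineered allele, describe pooled tissue of male and female littermates, give the health state as unknown and carry 1 donor label for both replicates. Libraries were stranded paired-end reads of 76 nt from polyadenylated RNA longer than 200 nt. With no other group, the comparison the design allows is that of replicate 1 with replicate 2, and SDs measure the spread between these libraries, which may be technical. The p-values compare 1 library with the other and cover counting error only.

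Collagens are extracellular proteins whose chains repeat the unit glycine-X-Y and wind around each other into a rigid helix. Fibrillar collagens form the tensile fibres of connective tissue, while the fibril-associated class (FACIT) sits on their surface and beaded-filament collagen VI links cells to the surrounding matrix. The multiplexins, collagens XV and XVIII, lie in or beside basement membranes and release antiangiogenic fragments from their ends. In kidney these chains belong to the interstitium, the vessel walls, the capsule and the basement membrane zone, and type I and type III fibres are what accumulates in renal fibrosis.

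The libraries held 67252604 and 87330090 expected counts over genes in replicates 1 and 2. The libraries stood apart in markers of tissues outside the nephron. A call here means an adjusted p below 0.05 and a fold of 2 or more in the exact binomial test described below. That rule called 2.40% of all 18723 genes tested higher in replicate 1 and 5.37% higher in replicate 2. Of the skeletal muscle markers, 5 of 5 were called higher in replicate 2, with summed levels of 2.25 TPM in replicate 1 and 714 TPM in replicate 2. Of the adrenal cortex markers, 5 of 5 were called higher in replicate 1, with sums of 51.9 TPM in replicate 1 and 0.73 TPM in replicate 2. Of the lymph node markers, 6 of 6 were called higher in replicate 2, with sums of 17.5 and 154.8 TPM in replicates 1 and 2. The tissue label itself held: the proximal tubule markers, which define kidney, were detected in 4 of 4 cases and summed to 8065 and 5926 TPM. TPM is the authors' transcript abundance per length on a common total, and a gene was taken as detected at 1 TPM or more in both libraries.

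Of the 38 collagens, 17 were detected (44.7%), against 12273 of 21474 protein-coding genes (57.2%). Together the 38 genes reached 407.52 TPM in replicate 1 and 316.59 TPM in replicate 2, a mean of 362 ± 64.3 TPM (SD, n = 2). They made up 60.4% and 63.0% of all collagen TPM in replicates 1 and 2, the rest being type IV chains at 266.73 and 186.12 TPM. In whole tissue, fewer cells of a type and less RNA per cell cannot be told apart. The level was concentrated in few genes: the 5 highest members held 62.5% of the sum in replicate 1 and 65.0% in replicate 2. The median of all 38 was 0.773 TPM, against 2.80 TPM over protein-coding genes, while the median of the detected members was 18.8 TPM, against 13.3 TPM over detected protein-coding genes.

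**Figure D1:**
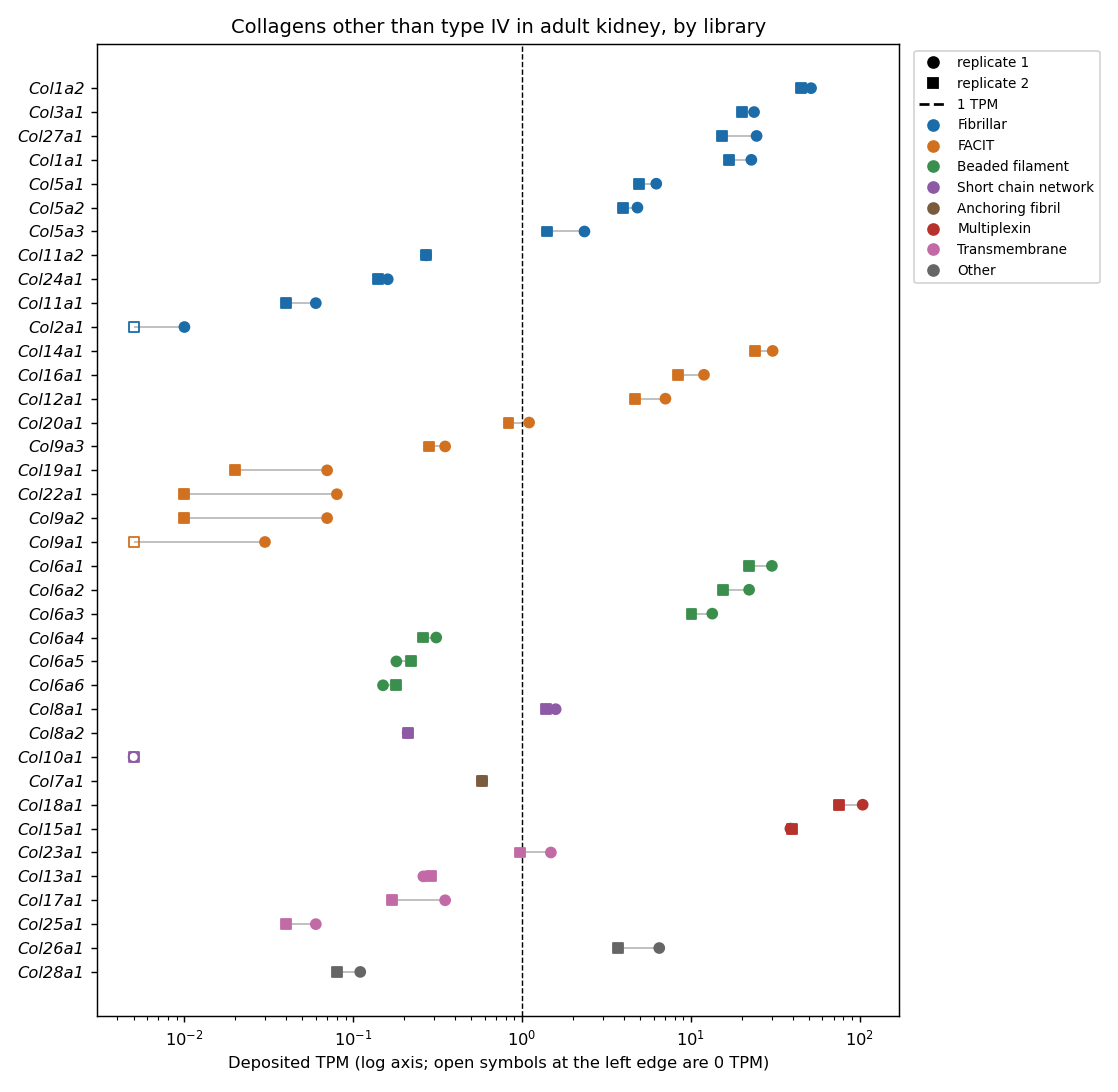
Deposited TPM (horizontal log axis) of each of the 38 collagens in replicate 1 (circles) and replicate 2 (squares), ordered by class and falling mean, with open symbols for 0 TPM and a dashed line at 1 TPM. The 17 detected members run from 1.38 TPM (Col8a1 in replicate 2) to 103.95 TPM (Col18a1 in replicate 1), and most classes also hold members well to the left of the line.

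The multiplexins and the fibrillar class held the largest shares, and their order was not settled by these data. The 2 multiplexin genes summed to 142.75 TPM in replicate 1 and 114.78 TPM in replicate 2, a share of 35.0% and 36.3% of the member TPM. The 11 fibrillar genes summed to 136.22 and 107.99 TPM, or 33.4% and 34.1%. By expected counts, which are not divided by length, the fibrillar class held 38.2% and 38.1% and the multiplexins 34.1% and 33.9%, so the order of these classes depended on the unit. Beaded-filament collagen VI followed with 66.26 and 48.2 TPM (16.3% and 15.2%), and the 9 FACIT genes with 51.17 and 38.21 TPM (12.6% and 12.1%). The short chain network, anchoring fibril, transmembrane and remaining classes together stayed small, with class sums between 0.58 and 6.6 TPM in replicate 1 and between 0.58 and 3.77 TPM in replicate 2.

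**Figure D2:**
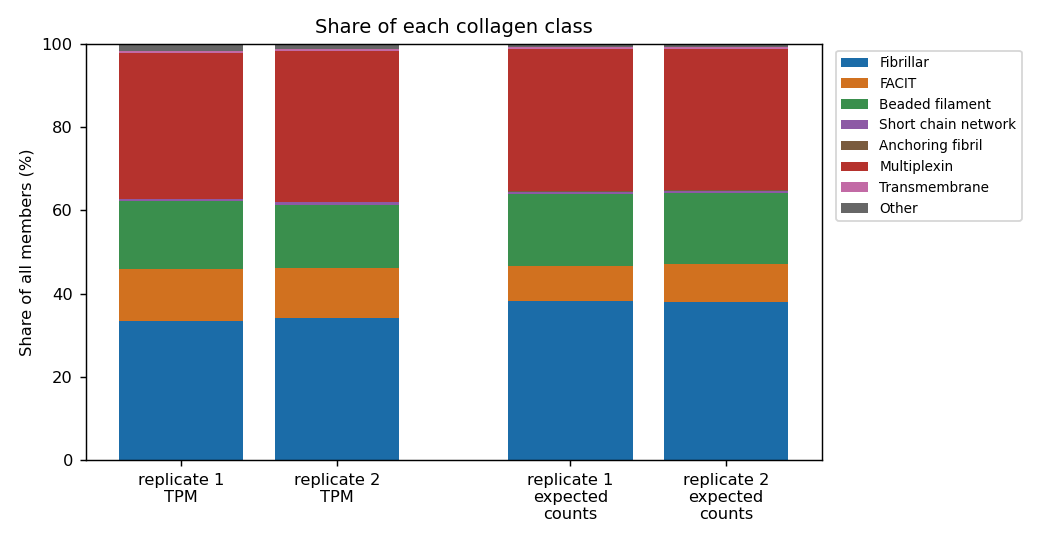
Share in percent of all member TPM (left pair of bars) and of all member expected counts (right pair) held by each collagen class in replicates 1 and 2. The fibrillar and multiplexin blocks lie within 3 points of each other in TPM, and the fibrillar block is the larger of the pair in counts.

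The repeat that makes these proteins collagens is printed here from the coding sequence, since the length of its unbroken runs sets the fibrillar class apart. For 5 of the highest members, from 3 classes, the first 45 bases of the longest unbroken glycine-X-Y stretch are shown 5′ to 3′ from the longest coding transcript of GENCODE M21 on GRCm38, with the glycine codon that opens each triplet in capitals.
Col18a1: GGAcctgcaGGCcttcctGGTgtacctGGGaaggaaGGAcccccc
Col1a2: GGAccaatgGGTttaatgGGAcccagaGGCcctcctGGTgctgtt
Col6a1: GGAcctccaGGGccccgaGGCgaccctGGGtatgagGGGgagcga
Col3a1: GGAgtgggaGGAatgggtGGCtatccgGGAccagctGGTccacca
Col1a1: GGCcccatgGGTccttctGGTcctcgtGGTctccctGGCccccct
Each triplet opens with a codon that begins with GG, and glycine can also fill the X or Y place, as in the first triplets of Col3a1. In the fibrillar genes the longest such stretch ran for 216 to 344 triplets, in collagen VI for 37 to 87, in the FACITs for 32 to 113 and in both multiplexins for 30. The ranges of collagen VI and the FACITs overlapped, and the multiplexins lay just below both. Multiplexins break the repeat often: Col18a1 held 17 stretches and Col15a1 held 13, against 2 in Col1a1, Col1a2 and Col3a1. Repeat stretches made up 30.4% of the residues of Col18a1, 77.2% of Col1a2 and 8.12% of Col12a1. The Col18a1 values are from Col18a1-201 (1774 residues), which held 3.01% of the gene's TPM in replicate 1 and 2.93% in replicate 2. The repeat share of the shorter Col18a1-202 (1315 residues), which held most of that TPM, was not computed.

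**Figure D3:**
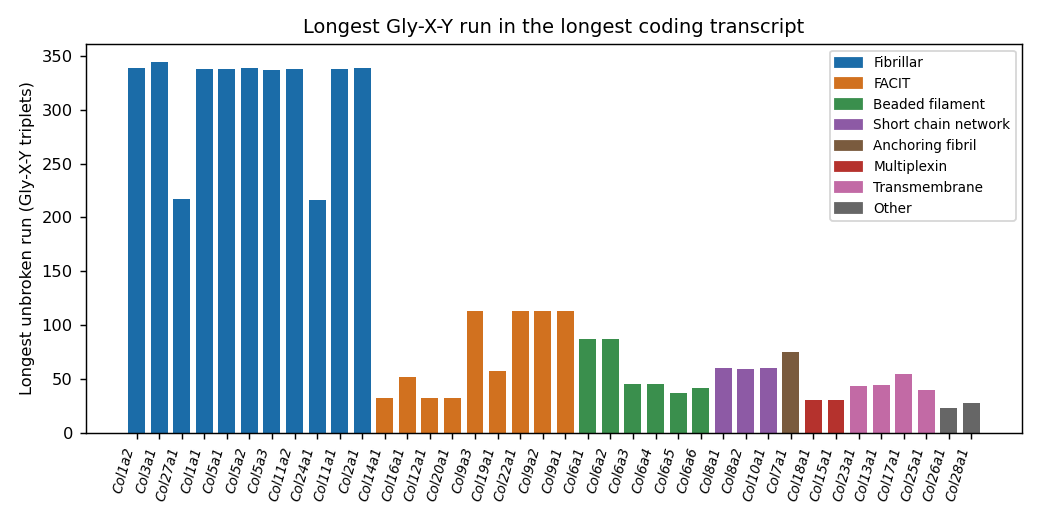
Longest unbroken run of Gly-X-Y triplets (vertical axis) in the longest coding transcript of each of the 38 members, coloured by class and ordered within a class by falling mean TPM. The fibrillar bars stand at 216 to 344 triplets, while the multiplexin bars reach 30.

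Col18a1 encodes the core protein of a basement membrane heparan sulfate proteoglycan whose end is cleaved to endostatin. It lies at chr10:77052178-77166548 on the minus strand (mm10), spans 114 kb and overlaps Slc19a1 on the opposite strand. The strand setting of the authors' counting is not given, so reads of such a partner cannot be told apart here, also for Col15a1, Col14a1, Col12a1, Col5a1 and Col5a3. Col18a1 had 103.95 TPM in replicate 1 and 75.13 TPM in replicate 2, from 26523 and 26676 expected counts. At 89.5 ± 20.4 TPM (SD, n = 2) it was the highest member and ranked 1345 among protein-coding genes. In mouse the upstream start is known to give the short form and the downstream start the longer forms. The upstream-start transcript Col18a1-202, which encodes 1315 residues, held 89.3% of the gene's TPM in replicate 1 and 90.41% in replicate 2. The downstream-start transcripts were low: Col18a1-203 (1527 residues) held 3.42% and 3.03%, and Col18a1-201 (1774 residues) held 3.01% and 2.93%. In counts, Col18a1-202 had 24200 and 24553, against 874 and 778 for Col18a1-203 and 1031 and 1004 for Col18a1-201. Col18a1-202 led in both libraries by either unit, while Col18a1-203 was above Col18a1-201 by TPM and below it by counts. A further transcript of 1956 nt, which has no name in the annotation used, held 4.27% and 3.41% of the TPM.

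Because usage differed so widely between the starts, both promoter windows are printed from RefSeq on GRCm38.p6, minus strand, from 250 bases before to 50 bases after the start. Capitals mark matches to a CCAAT box (CCAAT) or a GC box (GGGCGG), each searched on both strands along with the TATA box (TATAAA).
Upstream window, chr10:77166481-77166780: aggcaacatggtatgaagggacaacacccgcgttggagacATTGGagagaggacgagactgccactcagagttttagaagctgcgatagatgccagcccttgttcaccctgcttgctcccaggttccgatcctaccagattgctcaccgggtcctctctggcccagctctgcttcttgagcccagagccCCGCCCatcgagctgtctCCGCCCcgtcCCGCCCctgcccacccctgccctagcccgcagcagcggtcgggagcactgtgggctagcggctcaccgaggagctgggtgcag
Downstream window, chr10:77113656-77113955: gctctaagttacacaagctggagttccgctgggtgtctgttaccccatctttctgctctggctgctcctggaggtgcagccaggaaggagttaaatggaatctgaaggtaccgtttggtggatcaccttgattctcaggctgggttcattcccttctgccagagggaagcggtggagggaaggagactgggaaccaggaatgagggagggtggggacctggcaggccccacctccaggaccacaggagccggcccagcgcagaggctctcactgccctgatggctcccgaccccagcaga
The window of the used upstream start had 63.33% GC, 16 CpG pairs, 1 CCAAT and 3 GC box matches. The downstream window had 59.67% GC, 6 CpG pairs and none of these motifs. That window is placed on the start of Col18a1-203 (77113705). The start of Col18a1-201 (77113946) lies near its 5′ edge, so the window hardly covers the sequence before that start. Neither window held TATAAA. Over 32851 promoter windows of the same length, the median was 52.67% GC and 7 CpG pairs, and 37.41% held CCAAT, 35.66% held GGGCGG and 13.62% held TATAAA. These matches describe letters only.

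Col15a1, the other multiplexin, which tethers basement membranes of capillaries and muscle to the interstitium, had 38.80 TPM in replicate 1 and 39.65 TPM in replicate 2 (5784 and 6477 counts). Its TPM was level between libraries while its scaled counts were not, at a ratio of 1.10 of replicate 1 over replicate 2 (95% interval 1.06 to 1.14). The ratio of Col18a1 to Col15a1 was 2.68 in replicate 1 and 1.89 in replicate 2 by TPM. All counts of each gene per kilobase of its main coding transcript, meaning the coding transcript with the most counts, gave 4.68 and 4.21.

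Among fibrillar genes, those of types I, III and XXVII led. Col1a2, the second chain of type I collagen (chr6:4504814-4541544, plus strand), had 51.43 TPM in replicate 1 and 45.09 TPM in replicate 2 from 11457 and 11966 counts. Col1a1, the chain that enters the type I trimer in 2 copies (chr11:94936224-94953042, plus strand), had 22.79 and 16.76 TPM from 7002 and 7137 counts. At the RNA level Col1a1 was thus below its partner in both libraries, with a Col1a1 to Col1a2 ratio of 0.443 and 0.372 by TPM. Per kilobase of main coding transcript the ratio was 0.551 and 0.538. Col3a1, whose homotrimer accompanies type I in distensible tissue (chr1:45311538-45349706, plus strand), had 23.64 and 20.13 TPM in replicates 1 and 2. Col1a1 was close to Col3a1, with a TPM ratio of Col1a1 to Col3a1 of 0.964 in replicate 1 and 0.833 in replicate 2, below 1 in both.

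Col27a1, a fibrillar chain best known from cartilage, had 24.47 TPM in replicate 1 and 15.26 TPM in replicate 2. Its coding transcript Col27a1-201 held 47.85% and 54.59% of that TPM, or 11.71 and 8.33 TPM. Type II and type XI chains, which build cartilage fibrils, were near 0: Col2a1 had 3 and 0 counts, Col11a1 26 and 20, and Col11a2 81 and 102. Of the cartilage markers 0 of 5 were detected in both libraries, with Acan and Matn3 at 0 and sums of 2.32 TPM in replicate 1 and 1.02 TPM in replicate 2. Most of that sum was Comp, at 2.06 and 0.98 TPM. Type V chains, which set fibril diameter inside type I fibres, were lower than type I. Col5a1 had 6.23 and 4.93 TPM, Col5a2 had 4.82 and 3.97 TPM, and Col5a3 had 2.34 and 1.40 TPM. The ratio of Col5a1 to Col5a2 was 1.29 and 1.24 by TPM. Col24a1, described in bone, had 43 and 41 counts and at most 0.16 TPM. Bone markers were low as well, with Ibsp at 0, 0 of 4 detected, and sums of 0.52 TPM in replicate 1 and 0.15 TPM in replicate 2.

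Col3a1 and Col5a2 are neighbours on chromosome 1 on opposite strands, 24.6 kb apart, and their TPM ratio was 4.90 in replicate 1 and 5.07 in replicate 2. Collagen VI assembles as a trimer of 3 different chains. Each ratio between its chains was similar in replicates 1 and 2, as was that of Col3a1 to Col5a2. The same held for Col5a1 to Col5a2 (1.29 and 1.24), which lie on different chromosomes. Col6a1 (chr10:76708792-76726168, minus strand) had 30.15 and 21.96 TPM, its chromosome 10 neighbour Col6a2 had 22.10 and 15.50 TPM, and the long chain Col6a3 had 13.37 and 10.08 TPM. The Col6a1 to Col6a2 ratio was 1.36 in replicate 1 and 1.42 in replicate 2, and the Col6a1 to Col6a3 ratio was 2.26 and 2.18. Per kilobase of main coding transcript Col6a1 over Col6a3 was 2.57 and 2.55. The alternative chains Col6a4, Col6a5 and Col6a6 lay below 1 TPM, with 0.31 TPM or less in replicate 1 and 0.26 TPM or less in replicate 2. Col6a5 and Col6a6 had fractional counts in replicate 2 (149.33 and 115.67), which are not whole, as estimates can be where genes share reads.

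The FACIT class was read through 3 detected genes. Col14a1 and Col12a1 decorate type I fibrils, and Col16a1 is found in fibrillar and microfibrillar matrix. Col14a1 had 30.47 TPM in replicate 1 and 23.97 TPM in replicate 2 (5182 and 6091 counts). Col16a1 had 11.94 and 8.41 TPM (1244 and 1155 counts), and Col12a1 had 7.06 and 4.68 TPM (1353 and 1342 counts). Col20a1 reached 1.10 TPM in replicate 1 and 0.83 TPM in replicate 2. The type IX chains of cartilage, Col9a1, Col9a2 and Col9a3, had 1, 2 and 15 counts in replicate 1 and 0, 2 and 27 in replicate 2. Col19a1 and Col22a1 had 17 and 3 counts in replicate 1, against 7 and 6 in replicate 2.

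The remaining classes were mostly below 1 TPM. Col8a1, a short chain collagen of vessel walls and the cornea, had 1.58 and 1.38 TPM in replicates 1 and 2, while Col8a2 had 0.21 TPM in both. Col10a1, the collagen of hypertrophic cartilage, had 0 counts in replicates 1 and 2, where a count of 0 sets an upper limit of 3 counts, or 0.0446 and 0.0344 CPM. Col7a1, the anchoring fibril of skin, had 0.58 TPM in both libraries. Of the transmembrane collagens, Col23a1 had 1.48 and 0.97 TPM, Col17a1, a hemidesmosome protein, 0.35 and 0.17 TPM, Col13a1 38 and 52 counts and Col25a1 15 and 17 counts. Col26a1 had 6.49 and 3.69 TPM, and Col28a1 had 23 and 25 counts.

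Gene TPM of several members rested largely on short transcripts, whose share of the TPM exceeded their share of the counts, since TPM is per length. In the detected members, transcripts other than the main coding one held 12.2% of the counts and 26.8% of the TPM in replicate 1, and 12.6% and 30.5% in replicate 2. For Col14a1, the transcript Col14a1-204 of 2085 nt, which starts 141 kb into the gene and ends 1.11 kb before its end, took 70.5% of the TPM in replicate 1 and 64.9% in replicate 2 from 41.8% and 35.9% of the counts. The 1784 nt Col12a1-204, which begins 106 kb into the gene and reaches its end, took 69.2% and 68.0% of the TPM from 30.6% and 28.0% of the counts. For Col16a1 the 833 nt Col16a1-207, also at the 3′ end, took 48.1% and 60.8%, and the full coding transcript Col16a1-201 took 10.87% and 7.68%.

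The same pattern reached the multiplexins and the fibrillar types I and XXVII. Col15a1-203 (1755 nt, at the 3′ end) took 56.3% of gene TPM in replicate 1 and 46.9% in replicate 2. The 404 nt Col15a1-206, annotated as a processed transcript, took 5.33% and 24.5% on 22.1 and 151 counts. The 850 nt Col1a2-205, at the 5′ end of Col1a2, took 18.5% and 33.3%. For Col27a1 the 1485 nt Col27a1-205, a processed transcript near the 3′ end, took 31.0% and 26.2% from 8.36% and 6.63% of the counts. By contrast, Col1a1 and Col6a1 placed all counts on 1 of several transcripts. Col8a1 has only 1 transcript, so its counts could go nowhere else. Summing the main coding transcripts alone gave 298 TPM in replicate 1 and 220 TPM in replicate 2 for all members. The FACIT sum was then 10.2 ± 1.64 TPM from main transcripts, against 44.7 ± 9.16 TPM from gene values (SD, n = 2 each), and its share was 3.82% and 4.11%. On that measure the fibrillar class held 37.0% and 37.1%, the multiplexins 36.0% and 35.9%, and collagen VI 20.6% and 19.9%. A different measure divides all counts of a gene, short transcripts included, as scaled CPM by the length of the main coding transcript in kilobases. By its mean over both libraries, Col6a1, Col3a1 and Col1a1 followed Col18a1 and Col1a2, and Col15a1 moved to rank 6 and Col14a1 to rank 8. In replicate 2 alone Col15a1 (14.7 CPM per kilobase) was above Col1a1 (14.1 CPM per kilobase). By TPM of the main transcript itself, Col15a1 (14.41 and 11.18 TPM) was below Col1a1 (22.79 and 16.76 TPM) in both libraries. Transcripts of a gene share exons, so the deposited split is an estimate.

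**Figure D4:**
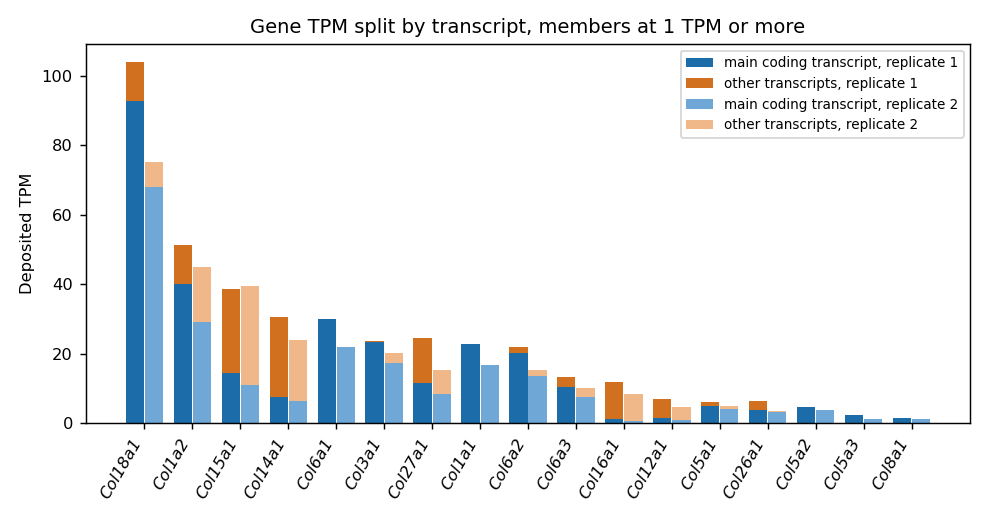
Deposited gene TPM (vertical axis) of the 17 detected members in replicate 1 (dark bars) and replicate 2 (light bars), divided into the coding transcript with the most counts (blue) and all other transcripts (orange). Blue makes up most of Col18a1 and all of Col1a1 and Col6a1, and orange most of Col15a1, Col14a1, Col16a1 and Col12a1. In Col27a1 blue holds 47.85% in replicate 1 and 54.59% in replicate 2.

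The libraries were then compared by expected counts scaled with the trimmed mean of M values (TMM), as a ratio of replicate 1 over replicate 2. A two-sided exact binomial test compared the reads of these libraries, not conditions, and a gene was called at a Benjamini-Hochberg adjusted p below 0.05 and a fold of 2 or more. Of the 38 members, 33 had the 10 summed counts needed for the test. Of these, 2 were called higher in replicate 1 and 0 in replicate 2, beside 2.40% and 5.37% of all 18723 genes tested. Without the fold, 18 of the 33 had an adjusted p below 0.05 in this exact binomial test, 17 of them with a ratio above 1, beside 56.8% of all genes tested in either direction.

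The called members were both far below 1 TPM. Col17a1 had 62 counts in replicate 1 and 29 in replicate 2, a ratio of 2.63 (95% interval 1.67 to 4.25, exact binomial test, adjusted p = 3.56e-05). Col19a1 had 17 and 7 counts, a ratio of 2.99 (1.18 to 8.53, adjusted p = 0.0331). Neither has a replicate check, and both fell short of the fold on TPM with a pseudocount of 0.1, at log2 ratios of 0.74 for Col17a1 and 0.50 for Col19a1. Epidermis markers, which include genes of stratified epithelium where Col17a1 is known, summed to 5.87 and 4.09 TPM in replicates 1 and 2, with 2 of 4 detected and 0 called, and their part in the result was not tested.

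The detected members leaned the same way by small amounts. All 17 had a ratio above 1, from 1.02 (Col8a1) to 1.48 (Col5a3), with a median of 1.21 or 0.27 on the log2 scale. Over detected protein-coding genes the median was -0.01 on the same scale, 48.5% had a ratio above 1 and the 10th to 90th percentiles ran from -0.43 to 0.33. Col5a3, Col27a1, Col16a1 and Col6a2 lay above that 90th percentile. Col27a1 had 6237 counts in replicate 1 and 5772 in replicate 2, a scaled ratio of 1.33 (95% interval 1.28 to 1.38). Col5a3 had 741 and 616 counts, a ratio of 1.48 (1.33 to 1.65). The intervals of Col5a1, Col5a2 and Col8a1 included 1. Over all 33 tested members, 26 ratios were above 1 and 7 below, the 7 all in genes under 1 TPM. These were Col9a3 at 0.684, Col6a4 at 0.698, Col6a6 at 0.722, Col6a5 at 0.736, Col11a2 at 0.978, and Col8a2 and Col13a1 between Col6a5 and Col11a2. Of the 7, Col6a5 alone had an adjusted p below 0.05 (0.0442, exact binomial test). The 6 type IV chains also had ratios above 1, with a median of 0.24 on the log2 scale.

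Base composition moved with this ratio. Among detected protein-coding genes with a transcript GC content of 55% or more, the median log2 ratio was 0.16 and 75.1% had a ratio above 1. Among genes under 45% GC the median was -0.23 and 19.1% had a ratio above 1. The detected collagens had a median GC content of 56.4% (46.8% to 61.6%), against 50.3% over detected protein-coding genes. Less the median of genes in the same decile of GC content, the members' median log2 ratio was 0.15 in place of 0.27, and 16 of 17 stayed above 0, the exception being Col5a1 at -0.06. Replicate 1 also had the higher smooth muscle and pericyte level, 254.7 TPM in replicate 1 and 115.8 TPM in replicate 2, with 5 of 5 markers detected, 4 of 5 ratios above 1 and 2 called. Its pericyte marker Rgs5 was the exception, at 16.51 and 16.67 TPM and a scaled count ratio of 0.886. Stroma markers, 7 of 7 detected and 0 called, summed to 180.4 and 144 TPM and had a median log2 ratio of 0.14. Of these, 5 of 7 had ratios above 1, while Pdgfra was at 0.862 and Dpt at 0.992. Other lists differed as well: the median log2 ratio was 0.33 for proximal tubule, 0.37 for fat, 0.44 for urothelium and -0.07 for endothelium markers. The fat list was split, with 3 of 5 ratios above 1, Ucp1 at 0.701 and Fabp4 at 0.888. Its sums were 611.2 TPM in replicate 1 and 591.1 TPM in replicate 2. The part of these tissues in the collagen ratios was not tested.

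**Figure D5:**
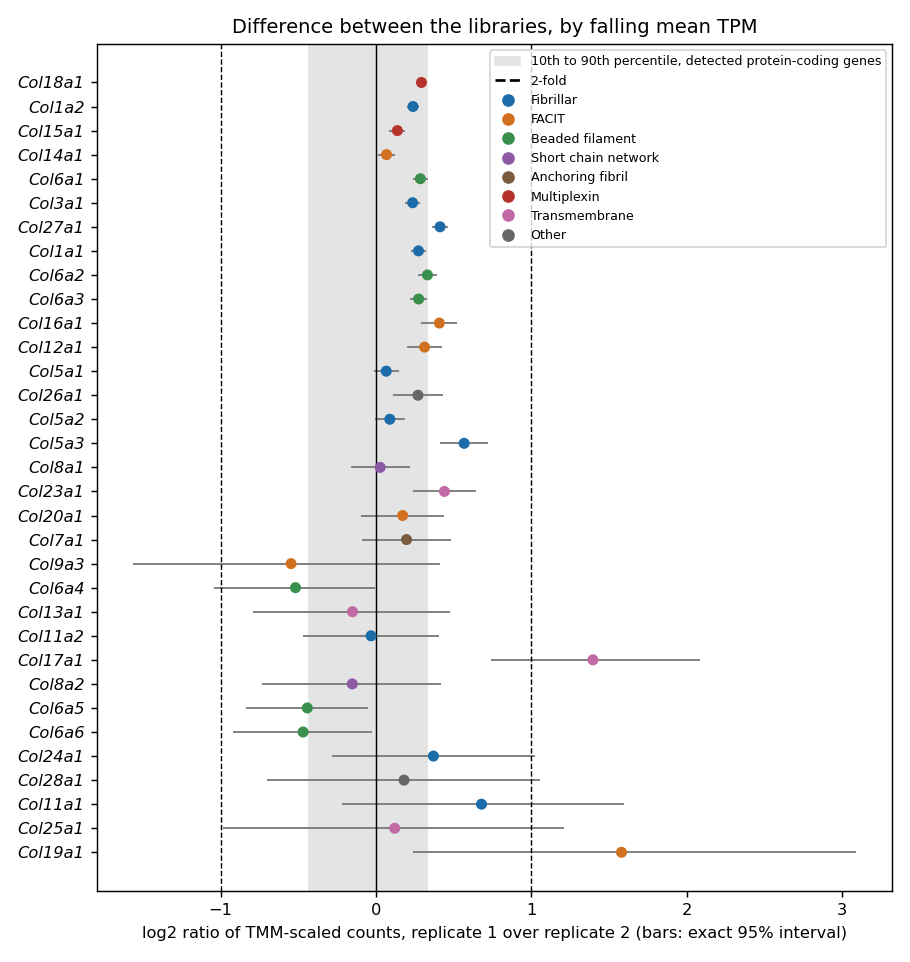
log2 ratio of TMM-scaled counts, replicate 1 over replicate 2, for the 33 tested members in order of falling mean TPM, with exact 95% intervals that cover counting error only. The grey band spans the 10th to 90th percentile of detected protein-coding genes (-0.43 to 0.33) and the dashed lines mark a fold of 2. The detected members sit at 0.03 to 0.57, and of all members Col17a1 and Col19a1 alone lie beyond the right dashed line.

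Genes that make and mature collagen were read from lists by step. Of 15 genes that hydroxylate or glycosylate collagen, 14 were detected, led by P4hb, the beta subunit of prolyl 4-hydroxylase, at 248.73 TPM in replicate 1 and 226.32 TPM in replicate 2. Ppib, the cyclophilin of the prolyl 3-hydroxylation complex, had 200.29 and 207.71 TPM, and Crtap, its partner, 66.36 and 65.16 TPM. Of 7 chaperone and export genes listed, 6 were in the tables and all 6 detected, led by Serpinh1, the collagen chaperone HSP47, at 94.05 and 72.37 TPM. Of 10 propeptide-removal genes, 5 were detected. These were led by Mep1a at 481.21 and 298.62 TPM, a meprin of the proximal tubule brush border, and by Pcolce, the enhancer of procollagen C-proteinase, at 137.83 and 105.64 TPM. In none of these 3 lists, with 15, 6 and 9 genes tested, was a gene called in either direction. Over all genes tested, 2.40% were called higher in replicate 1 and 5.37% in replicate 2.

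All 6 cross-linking genes were detected, with Tgm2, a transglutaminase, at 166.85 and 146.10 TPM and the lysyl oxidase relatives Loxl1 and Loxl2 at 31.94 and 13.06 TPM in replicate 1 and 21.23 and 10.42 TPM in replicate 2. Of 14 fibril partners, 13 were detected. Sparc, a collagen-binding matricellular protein, was the highest at 646.53 and 485.32 TPM, followed by the small leucine-rich proteoglycans Bgn at 214.94 and 221.48 TPM and Dcn at 78.78 and 63.78 TPM. Of 12 breakdown genes, 10 were detected, led by the inhibitor Timp3 at 660.85 and 403.03 TPM and by the peptidase Pepd, which frees proline, at 251.29 and 197.94 TPM. Of 9 receptors, 4 were detected: Ddr1, a collagen-binding kinase, had 83.93 and 60.38 TPM, Itgb1 had 38.11 and 43.06 TPM, and Itga1 had 10.41 and 8.28 TPM. The platelet receptor Gp6 had 0 counts in both libraries. No gene of these 4 lists, with 6, 13, 11 and 8 genes tested, was called in either direction, nor was any of the 6 type IV chains. With 2.40% and 5.37% of all genes tested called higher in replicates 1 and 2, 0 calls in such short lists says little.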

How the data were processed

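Polyadenylated kidney RNA was measured in 2 libraries. Per the file headers, the authors deposited per gene an expected count, TPM, FPKM and posterior values (signal: an SD of the count, lengths and interval bounds), and per transcript the share of its gene's TPM in percent. Per the deposited text records, annotation M4 on mm10 was used. The names of the aligner and quantifier were not given in the sources used here. Symbols, positions and transcript sequences came from GENCODE M21 on GRCm38, which matched 42462 of 43346 identifiers, and 30 of 38 members had a RefSeq promoter window. Rows of 97 spike-ins (1.59% and 2.29% of the counts of replicates 1 and 2) and 26248 numeric identifiers stayed out of the library sizes.

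Expected counts were rounded. TMM factors from edgeR 4.0.16 (R 4.3.3) were 1.03 and 0.974 for replicates 1 and 2, with size factors of DESeq2 1.42.0 tried in their place. The exact binomial test (scipy 1.17.1) ran over all genes with 10 or more summed counts and was adjusted over all of them. Its trial on simulated data held counting error only, so it cannot show how often spread between libraries yields a call. Beyond counting error, edgeR put that spread at a biological coefficient of variation of 0.226 over 16768 genes. Intervals (95%) and limits for a count of 0 (3 counts) cover counting error only, since no molecular identifiers are named. The deposited count SD was 0 for 34 of 38 members. Every member is accounted for, those averaging 1 TPM or more with values in both libraries, and of each pathway list up to 3 of the highest genes are named. Classes, lists and tests were chosen with earlier results of these data known. Alternatives covered the scaling, the count minimum, the fold, the TPM floor and the unit. The junction and contig tables on mm9 were not used here.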

Additional observations from a re-analysis of the deposited data

How the results depend on the processing

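The count of detected members was 20 at a floor of 0.5 TPM, 15 at 2 TPM, 17 by FPKM and 20 by posterior mean TPM, and 17 to 19 with 1 library left out. The 2 members called higher in replicate 1 were 2 under DESeq2 size factors, library totals, no count minimum and a fold of 1.5, and 0 on TPM with a pseudocount of 1 or of 0.1, by fold alone; the count called higher in replicate 2 was 0 under all of these. The summed TPM of all members was 292 as FPKM and 259 with main coding transcripts only, in place of 362, and 316.59 to 407.52 with 1 library left out. As a share of expected counts the fibrillar class held 38.1% in place of 33.8%, and the multiplexins 34.0% in place of 35.6%. With 1 library left out, these TPM shares ran from 33.4% to 34.1% and from 35.0% to 36.3%. The median log2 ratio of the detected members, 0.27, was 0.28 with DESeq2, 0.35 with library totals, 0.44 on TPM with a pseudocount of 0.1 and 0.15 less the median of the GC decile. These ratio alternatives and the main-transcript sum were chosen after seeing the data. On TPM, the median ratio of replicate 1 over replicate 2 was 1.14 over detected protein-coding genes and 1.36 over detected members. Of 19 single-member ratios, 19 kept their side of the thresholds with DESeq2 and 17 on TPM, the exceptions being Col17a1 and Col19a1. The log2 ratio of Col15a1, called by neither, turned to -0.03 on TPM from 0.14. No paired analysis was possible because the labels give 1 group. With 1 library on a side, depth limits what can be said of members below 1 TPM.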
